A study of Pan troglodytes with 217 samples.

Results

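The genes described here are 10 Polycomb genes, EZH2, EZH1, EED, SUZ12, JARID2, AEBP2, MTF2, PHF19, RNF2 and KDM6B, in single cells of chimpanzee blastoids. They were chosen by name, and all 10 were found, under 11 of the 33729 Ensembl gene identifiers of the count matrix. Polycomb repressive complex 2 (PRC2) methylates histone H3 at lysine 27. EED, SUZ12 and a catalytic subunit, EZH2 or EZH1, form its core, and either MTF2 or PHF19 on one side, or JARID2 and AEBP2 on the other, bind to that core as accessory subunits. Polycomb repressive complex 1 (PRC1) ubiquitinates histone H2A through RNF2 or its paralog RING1, and KDM6B is a demethylase that removes the PRC2 mark. Polycomb silencing keeps developmental regulators off in early embryonic cells.

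Blastoids are blastocyst-like structures formed from naive pluripotent stem cells (PSCs), the counterpart in culture of the preimplantation epiblast. The naive PSCs behind them were expanded in a medium that holds EPZ-6438, an inhibitor of the catalytic activity of EZH2. Its dose was 0.5 to 1 µM per the study's methods, and the media of the later steps of blastoid formation do not list it. The study's methods give 2 routes to blastoids, one by way of floating colonies grown in this same medium and one straight from dissociated naive cells, and no label says which route these cells took. All cells were taken at day 4, and none is labelled as free of the inhibitor before blastoid formation, so there is no untreated group. Most mural trophectoderm was cut off and dissociated apart from the rest. The labels name no blastoid, line, plate or part of the blastoid per cell. The cells therefore count as 1 sample, no test was possible, and cells were not used as replicates. Levels are given in CPM, for which a gene's total in a class was scaled to that class's whole read total, with exact Poisson 95% intervals. Shares of cells have exact Clopper-Pearson 95% intervals. Both cover counting error only, since SMART-seq2 reads carry no molecular identifiers, and the spread over cells is given as the interquartile range or as the lowest, median and highest cell.

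The cells used had reads on at least 8000 genes and between 1679888 and 25630392 reads each. Clustering gave 50 epiblast-like cells, 32 hypoblast-like cells and a larger and a smaller trophectoderm-like cluster of 60 and 51 cells. The median depth was close in the 3 classes, at 3951120 reads in epiblast-like, 3978820 in hypoblast-like and 3960860 in trophectoderm-like cells. Of the 15 trophectoderm markers, 14 reached 10 CPM in the trophectoderm-like class. The same level was reached by 11 of 14 epiblast markers and 13 of 14 hypoblast markers in their own class. Markers of another class were present too. Among epiblast-like cells, 39 of 50 carried 3 or more markers of another class at 10 CPM or more, as did 31 of 32 hypoblast-like cells and 48 cells of the trophectoderm-like clusters. Amnion, primitive streak, extraembryonic mesoderm, neural and 8-cell lists reached that count in 0 cells. The Polycomb genes took part in the clustering, but leaving them and the related genes out put every cell in the same class.

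EZH2, the main catalytic subunit in proliferating cells, was listed at a low level in every class. It had 2.86 CPM in epiblast-like cells (95% interval 2.64 to 3.09), 3.50 CPM in hypoblast-like cells (3.18 to 3.84) and 3.32 CPM in trophectoderm-like cells (3.16 to 3.48). At least 1 read was present in 49 of 50 epiblast-like cells, 31 of 32 hypoblast-like cells and 95.5% of trophectoderm-like cells. The lowest, median and highest cell had 0, 2.40 and 8.50 CPM among epiblast-like cells. They had 0, 3.14 and 12.9 CPM among hypoblast-like and 0, 2.96 and 13.97 CPM among trophectoderm-like cells. The distributions overlapped over nearly their whole length, and the largest ratio between classes was 1.22, hypoblast-like over epiblast-like. Within the trophectoderm the smaller cluster had 3.83 CPM and the larger 2.83 CPM.

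The level of EZH2 itself is uncertain. Its reads were listed under 2 identifiers, ENSPTRG00000019837 and ENSPTRG00000043336. The former held most of them, with 2.37, 2.48 and 2.58 CPM in the epiblast-, hypoblast- and trophectoderm-like classes. The latter had 0.483, 1.02 and 0.738 CPM. STAR leaves reads that overlap more than 1 gene uncounted, so a gene that is annotated as overlapping entries can lose reads. In the matrix, the 17336 symbols with 1 identifier had a median of 5.23 CPM, and 43.1% of them reached 10 CPM. The 710 symbols with 2 or more identifiers had a median of 0.154 CPM, and 12.3% reached 10 CPM. EZH2, at 3.23 CPM over all cells kept, was above 80.1% of these 710. Whether its 2 entries overlap in the annotation was not tested. The absolute level of EZH2 should therefore not be read from these counts, and its ratio between classes differed between the entries. For hypoblast- over epiblast-like cells it was 1.04 in ENSPTRG00000019837 and 2.11 in ENSPTRG00000043336, so the ratio of 1.22 came mostly from the entry with fewer reads. None of the other 9 genes had more than 1 identifier.

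**Figure D1:**
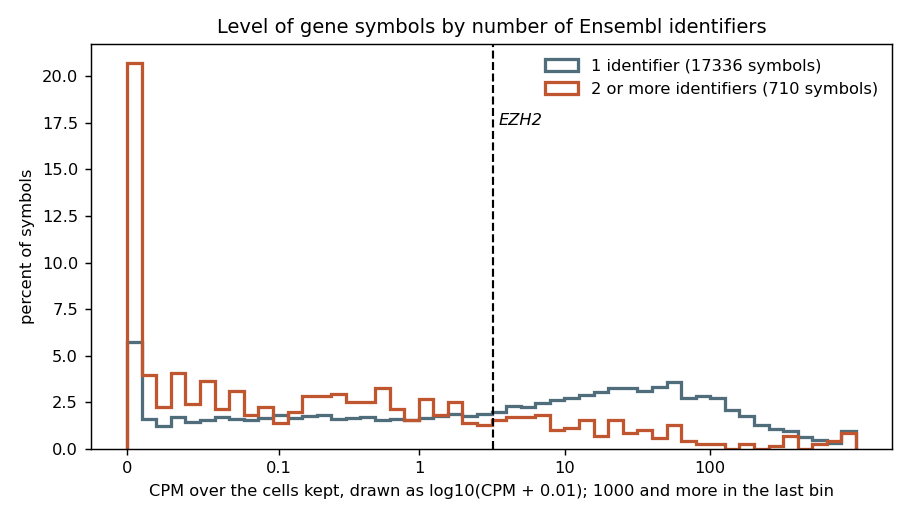
Distribution of CPM over all cells kept for gene symbols with 1 Ensembl identifier and with 2 or more, in percent of each group of symbols, on a log10(CPM + 0.01) axis whose last bin is open-ended. The symbols with 2 or more identifiers lie lower (median 0.154 against 5.23 CPM), and the dashed line marks EZH2 at 3.23 CPM.

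EZH1 (ENSPTRG00000009217), the paralog that can replace EZH2 and is known from slowly dividing and differentiated cells, was patchy. Reads were present in 38 of 50 epiblast-like cells (76%, 61.8% to 86.9%), 16 of 32 hypoblast-like cells (50%, 31.9% to 68.1%) and 78 trophectoderm-like cells (70.3%, 60.9% to 78.6%). With cells thinned to 2532312 reads, and the 20 shallower cells (2 epiblast-like, 7 hypoblast-like and 11 trophectoderm-like) left out, a read was present in 37 of 48, 13 of 25 and 70 of 100 cells. EZH1 had 6.19 CPM (5.86 to 6.53) in the epiblast-like class, 3.83 CPM (3.50 to 4.18) in the hypoblast-like class and 5.74 CPM (5.53 to 5.95) in the trophectoderm-like class. The cell medians of 3.55, 0.184 and 4.05 CPM put hypoblast-like cells lowest, but single cells overlapped, with maxima of 28.4, 23.9 and 45.9 CPM. The ratio of epiblast- to hypoblast-like was 1.62, and the difference of epiblast- from trophectoderm-like, 0.11 on the log2 scale, turned to -0.08 with median-ratio scaling.

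EED (ENSPTRG00000047379), which binds the methylated lysine and stimulates the enzyme, was the 1 gene of the 10 that was higher by 2-fold or more in the trophectoderm-like class than in both others. Summed over cells it was at 391 CPM (389 to 392) in the trophectoderm-like class, 104.7 CPM (103.3 to 106.04) in the epiblast-like class and 89.9 CPM (88.3 to 91.6) in the hypoblast-like class. The trophectoderm-like level was thus 3.73-fold the epiblast-like and 4.34-fold the hypoblast-like level. The lowest, median and highest cell had 55.7, 363 and 995 CPM among trophectoderm-like cells. Epiblast-like cells ran from 0 through 88.2 to 323 CPM, and hypoblast-like cells from 13.2 through 86.9 to 184.2 CPM. No epiblast- or hypoblast-like cell exceeded the trophectoderm-like median, and 95.5% of trophectoderm-like cells exceeded the median of each other class. The interquartile ranges did not overlap, although the full ranges did. The larger and smaller trophectoderm-like clusters were alike in EED, at 394 and 387 CPM.

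Trophectoderm markers were, like EED, highest in the trophectoderm-like class, which was named from them. Their summed level was 630 CPM in epiblast-like cells (70.3 to 3008 CPM over cells), 696 CPM in hypoblast-like cells (0.367 to 1957 CPM) and 4774 CPM in trophectoderm-like cells (1322 to 19369 CPM), and none of the 15 was at 0 in a class. In the 39 epiblast-like cells that carried such markers of another class EED was at 111.8 CPM, and in the 11 without them at 77.5 CPM. In trophectoderm-like cells EED was at 347 CPM in the 48 with such markers and at 419 CPM in the 63 without. With all such cells left out, the log2 ratio of epiblast- over trophectoderm-like cells went from -1.90 to -2.43.

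SUZ12 (ENSPTRG00000008980), the scaffold of the PRC2 core, did not share the shift of EED. It was at 30.3 CPM (29.52 to 30.995) in the epiblast-like class, 21.3 CPM (20.5 to 22.2) in the hypoblast-like class and 36.7 CPM (36.1 to 37.2) in the trophectoderm-like class, and every cell had a read. The lowest, median and highest cell had 9.70, 27.3 and 57.6 CPM in the epiblast-like class. These were 6.71, 19.6 and 51.8 CPM in the hypoblast-like class and 6.56, 34.7 and 118.7 CPM in the trophectoderm-like class. The cells overlapped widely, and the largest ratio, trophectoderm- over hypoblast-like, was 1.72. Because EED differed and SUZ12 differed less, EED reads per SUZ12 read went from 3.46 in epiblast-like and 4.21 in hypoblast-like cells to 10.7 in trophectoderm-like cells. Reads were not corrected for transcript length, so only the change of this ratio between classes can be read, not its size. A read of EED, SUZ12 and at least 1 of the catalytic genes was present in 48 of 50 epiblast-like cells, 31 of 32 hypoblast-like cells and 98.2% of trophectoderm-like cells.

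**Figure D2:**
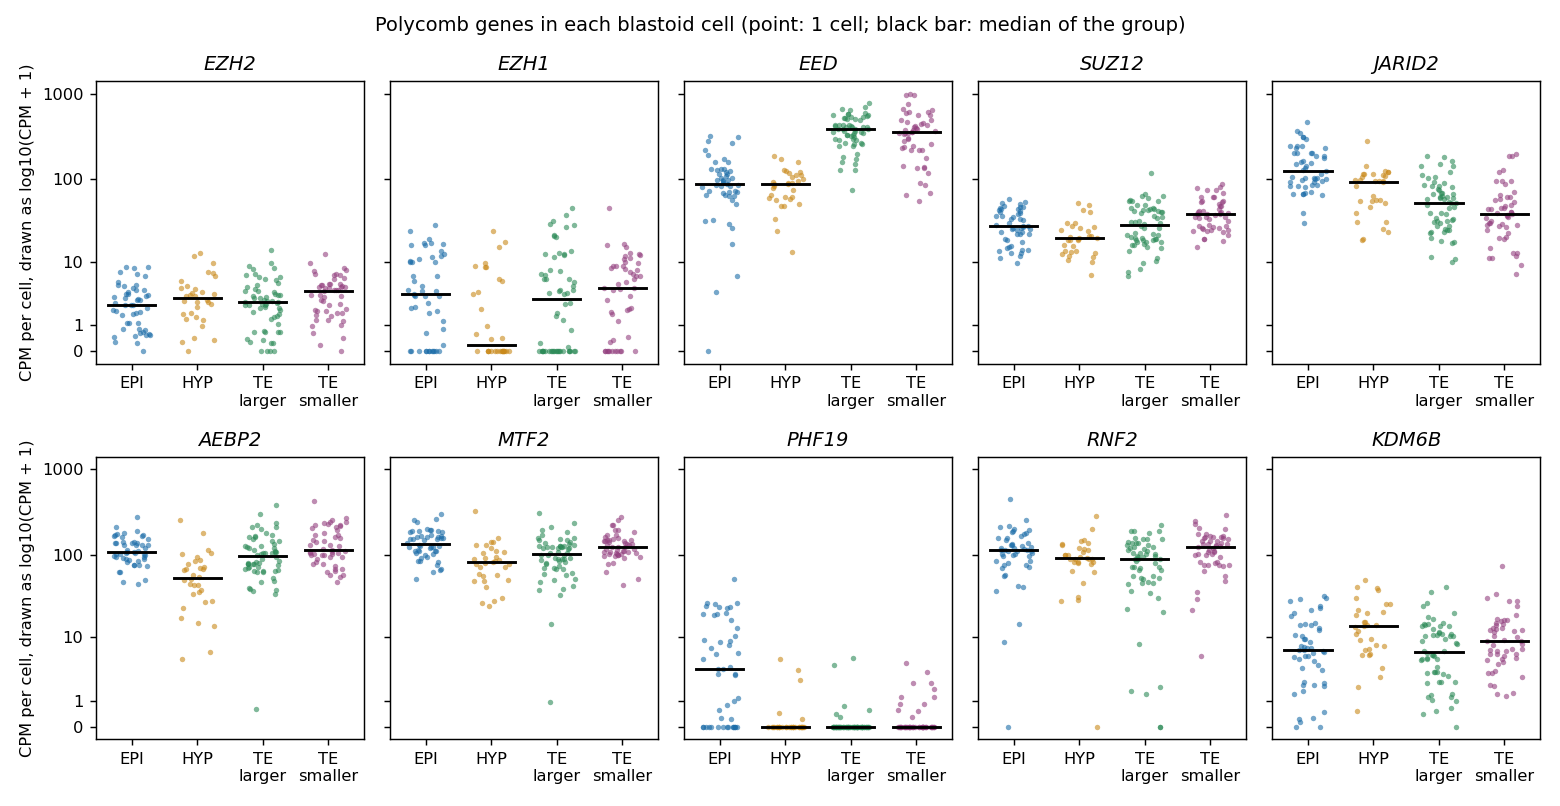
CPM of each of the 10 genes in each cell (1 point per cell, black bar at the median), in epiblast-like (EPI), hypoblast-like (HYP) and the larger and smaller trophectoderm-like (TE) clusters, on a log10(CPM + 1) axis. EED lies higher in both TE clusters (median 363 CPM over both), JARID2 is highest in EPI (median 126.1 CPM), and PHF19 has few reads outside EPI. Levels are not corrected for length and are not to be compared between panels.

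JARID2 (ENSPTRG00000017743) is an accessory subunit that helps to bring PRC2 to chromatin and stimulates it. Compared with trophectoderm-like cells, it ran the other way from EED in both other classes. It was at 152.3 CPM (150.7 to 153.997) in the epiblast-like class, 84.4 CPM (82.80 to 85.98) in the hypoblast-like class and 58.7 CPM (58.05 to 59.37) in the trophectoderm-like class. The epiblast-like level was 2.59-fold the trophectoderm-like and 1.81-fold the hypoblast-like level. Epiblast-like cells ranged from 30.2 through a median of 126.1 to 462 CPM, and hypoblast-like cells from 18.5 through 93.5 to 282 CPM. Trophectoderm-like cells ranged from 6.82 through 44.5 to 198.7 CPM. In 48 of 50 epiblast-like cells JARID2 exceeded the trophectoderm-like median, and 9.01% of trophectoderm-like cells exceeded the epiblast-like median, with no overlap of the interquartile ranges. JARID2 was at 80.2 CPM in the 48 trophectoderm-like cells that carried markers of another class and at 44.4 CPM in the 63 that did not. Epiblast-like cells had 148.99 and 165.1 CPM by the same division, and the part of these markers in the level of JARID2 was not tested.

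AEBP2 (ENSPTRG00000004747), the partner of JARID2 in the same form of PRC2, did not follow it. It was lowest in hypoblast-like cells, at 64.5 CPM (63.1 to 65.9), against 116.01 CPM (114.6 to 117.5) in the epiblast-like and 123.9 CPM (122.9 to 124.9) in the trophectoderm-like class. The lowest, median and highest cells had 5.11, 53.3 and 255.3 CPM in the hypoblast-like class. They had 44.6, 107.98 and 281 CPM in the epiblast-like class. Trophectoderm-like cells ran from 0.612 to 429 CPM, with an interquartile range of 74.1 to 160.1 CPM. Only 3 of 32 hypoblast-like cells exceeded the median of either other class. The ratios of 1.799 and 1.92 were close to 2-fold, and the latter passed it in 5 of 13 alternatives, with the log2 ratio of hypoblast- over trophectoderm-like cells between -1.73 and -0.93. JARID2 made up 56.8%, 56.7% and 32.1% of the reads of this pair in the epiblast-, hypoblast- and trophectoderm-like classes.

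MTF2 and PHF19 are Polycomb-like proteins, which bind DNA and define the other form of PRC2, and they differed from each other in pattern. MTF2 (ENSPTRG00000000965) was present in every cell, at 139.7 CPM (138.2 to 141.3) in the epiblast-like class, 83.2 CPM (81.7 to 84.8) in the hypoblast-like class and 120.7 CPM (119.8 to 121.6) in the trophectoderm-like class. The cell medians were 134.2, 81.3 and 116.3 CPM, and the full ranges of 51.1 to 303, 24.3 to 329 and 0.914 to 306 CPM overlapped almost wholly. Still, 45 of 50 epiblast-like cells exceeded the hypoblast-like median, and 4 of 32 hypoblast-like cells exceeded the epiblast-like median. The largest ratio was 1.68, epiblast- over hypoblast-like.

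PHF19 (ENSPTRG00000044184) was nearly restricted to the epiblast-like class. It had 8.63 CPM (8.24 to 9.03) there, 0.599 CPM (0.473 to 0.749) in the hypoblast-like class and 0.292 CPM (0.248 to 0.343) in the trophectoderm-like class, a ratio of 14.4 and of 29.5. Reads were found in 35 of 50 epiblast-like cells (70%, 55.4% to 82.1%), 5 of 32 hypoblast-like cells (15.6%, 5.28% to 32.8%) and 18 trophectoderm-like cells (16.2%, 9.90% to 24.4%). After the same thinning, without the shallower cells, these were 33 of 48, 5 of 25 and 15 of 100. In epiblast-like cells the level ran from 0 through a median of 3.70 to 51.1 CPM, and 15 of 50 cells reached 10 CPM, whereas the highest cell had 5.16 CPM among hypoblast-like and 5.37 CPM among trophectoderm-like cells. A single cell held 63.6% of the hypoblast-like reads, so the hypoblast-like level rests on it. Leaving out the highest cell of each class put the log2 ratio of epiblast- over hypoblast-like cells at 5.03 in place of 3.85. Over 13 alternatives it ran from 2.58, with clustering on UMAP coordinates, to 7.31, with the median over cells. The hypoblast-like median was 0 and was put at a floor of 3 reads in the class, so 7.31 is not a measured ratio.

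RNF2 (ENSPTRG00000001775), the ubiquitin ligase of PRC1, was at 121.5 CPM (120.06 to 123.01) in the epiblast-like class, 103.9 CPM (102.2 to 105.7) in the hypoblast-like class and 106.6 CPM (105.7 to 107.5) in the trophectoderm-like class. The cell medians of 113.5, 90.7 and 103.3 CPM and the ranges of 0 to 454, 0 to 283 and 0 to 294 CPM overlapped. The largest ratio was 1.17, and the sign of the epiblast- against trophectoderm-like difference turned with median-ratio scaling, from 0.19 to -0.0032 on the log2 scale. A total of 10 cells were under 10 CPM.

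KDM6B (ENSPTRG00000008710), the demethylase, was highest in hypoblast-like cells, at 14.7 CPM (14.03 to 15.37), against 9.06 CPM (8.66 to 9.47) in the epiblast-like and 10.1 CPM (9.78 to 10.3) in the trophectoderm-like class. The lowest, median and highest cell had 0.516, 13.8 and 50.1 CPM among hypoblast-like cells. They had 0, 6.83 and 32.4 CPM among epiblast-like and 0, 7.96 and 73.4 CPM among trophectoderm-like cells. The ratios of 1.62 and 1.46 were under 2-fold, although the log2 ratio of epiblast- over hypoblast-like cells was -1.01 by the median over cells, and the cells overlapped. KDM6B moved with markers of another class. It was at 14.2 CPM in the 48 trophectoderm-like cells that carried them and at 7.29 CPM in the 63 that did not, and at 9.32 and 8.08 CPM in the 39 and 11 epiblast-like cells. Of the hypoblast-like cells 31 carried them, at 15.1 CPM, and the 1 that did not had 3.77 CPM. With such cells left out the log2 ratio went from -0.70 to 1.10 for epiblast- over hypoblast-like and from 0.55 to -0.95 for hypoblast- over trophectoderm-like cells, with 1 hypoblast-like cell behind both values. KDM6B is also known as a gene that stress can induce. The summed level of 14 immediate early genes, which dissociation can raise, was 323, 450 and 340 CPM in the epiblast-, hypoblast- and trophectoderm-like classes. This order came from KLF6, at 84.5, 303.3 and 127.5 CPM, and the other 13 genes summed to 238.2, 146.9 and 212.2 CPM, lowest in the hypoblast-like class. Within the classes KDM6B had a Pearson r of 0.20, -0.03 and -0.01 with that sum in epiblast-, hypoblast- and trophectoderm-like cells, which share depth and total, and 0.18, -0.02 and -0.03 without KLF6. The division of EED, JARID2 and KDM6B levels by markers of another class and the sum without KLF6 were added after the values were seen. Its paralog KDM6A had 25.1, 31.5 and 29.8 CPM in the same order of classes.

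Counted by a ratio of 2-fold or more, 3 of the 10 genes differed between epiblast- and trophectoderm-like cells. JARID2 and PHF19 were higher in epiblast-like and EED in trophectoderm-like cells. Among the 12955 genes at 1 CPM or more in either class, 35.2% passed the same ratio, 23.6% upwards in epiblast-like and 11.6% upwards in trophectoderm-like cells. Between epiblast- and hypoblast-like cells only PHF19 passed, 1 of 10, where 26.3% of 12817 genes did (19% higher in epiblast-like and 7.39% higher in hypoblast-like cells). Between hypoblast- and trophectoderm-like cells only EED passed, 1 of the 9 genes at that level, where 29.1% of 12428 genes did (15.3% higher in hypoblast-like and 13.8% higher in trophectoderm-like cells). None of 9 passed between the smaller and larger trophectoderm-like clusters, where 19.1% of 12041 genes did (10.3% higher in the smaller and 8.72% higher in the larger cluster). The shares of the 10 genes were thus near or below those of all genes. Their median log2 ratio was 0.01 for epiblast- over trophectoderm-like cells, 0.60 for epiblast- over hypoblast-like, -0.54 for hypoblast- over trophectoderm-like and 0.29 for the smaller over the larger cluster. The medians over all genes were 0.15, 0.18, -0.02 and 0.05. The hypoblast counts have a limit, since 1 hypoblast-like cell remained when cells with markers of another class were left out.

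Among the remaining PRC2 subunits PHF1 and LCOR differed by 2-fold or more between classes. PHF1, the third Polycomb-like protein, had 19.7 CPM (19.1 to 20.3) in the epiblast-like class, 9.66 CPM (9.13 to 10.2) in the hypoblast-like class and 2.88 CPM (2.73 to 3.03) in the trophectoderm-like class. It reached 10 CPM in 37 of 50 epiblast-like cells, 12 of 32 hypoblast-like cells and 8 trophectoderm-like cells. PHF1 passed 2-fold in all 3 pairs of classes, but only narrowly for epiblast- over hypoblast-like cells. Whether the ratios of this and the following lists keep their side of 2-fold under other scaling was not tested. LCOR, whose locus also encodes the PRC2 partner PALI1, had 29.3 and 27.3 CPM in epiblast- and hypoblast-like cells, 2.25 and 2.10 times the trophectoderm-like level, and passed for both pairs with trophectoderm-like cells. Of the 5 other PRC2 genes at 1 CPM or more, 2 were higher by 2-fold in epiblast-like than trophectoderm-like cells, where 35.2% of all genes passed in either direction and 23.6% in this one. By the same ratio 1 was higher in epiblast-like than hypoblast-like cells (19% of all genes) and 2 were higher in hypoblast-like than trophectoderm-like cells (15.3%), and none was lower by 2-fold. The histone binders RBBP4 and RBBP7, which PRC2 shares with other complexes, stayed under 2-fold. RBBP4 had 634, 365 and 337 CPM in the epiblast-, hypoblast- and trophectoderm-like classes. RBBP7 had 195.3, 197.4 and 248.3 CPM in the same order, and LCORL, the paralog of LCOR, had 18.3, 22.6 and 22.6 CPM. EPOP, with a highest class level of 0.0883 CPM, and EZHIP, listed at 0 under 2 identifiers and so with the same uncertainty as EZH2, were the other two of the list.

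**Figure D3:**
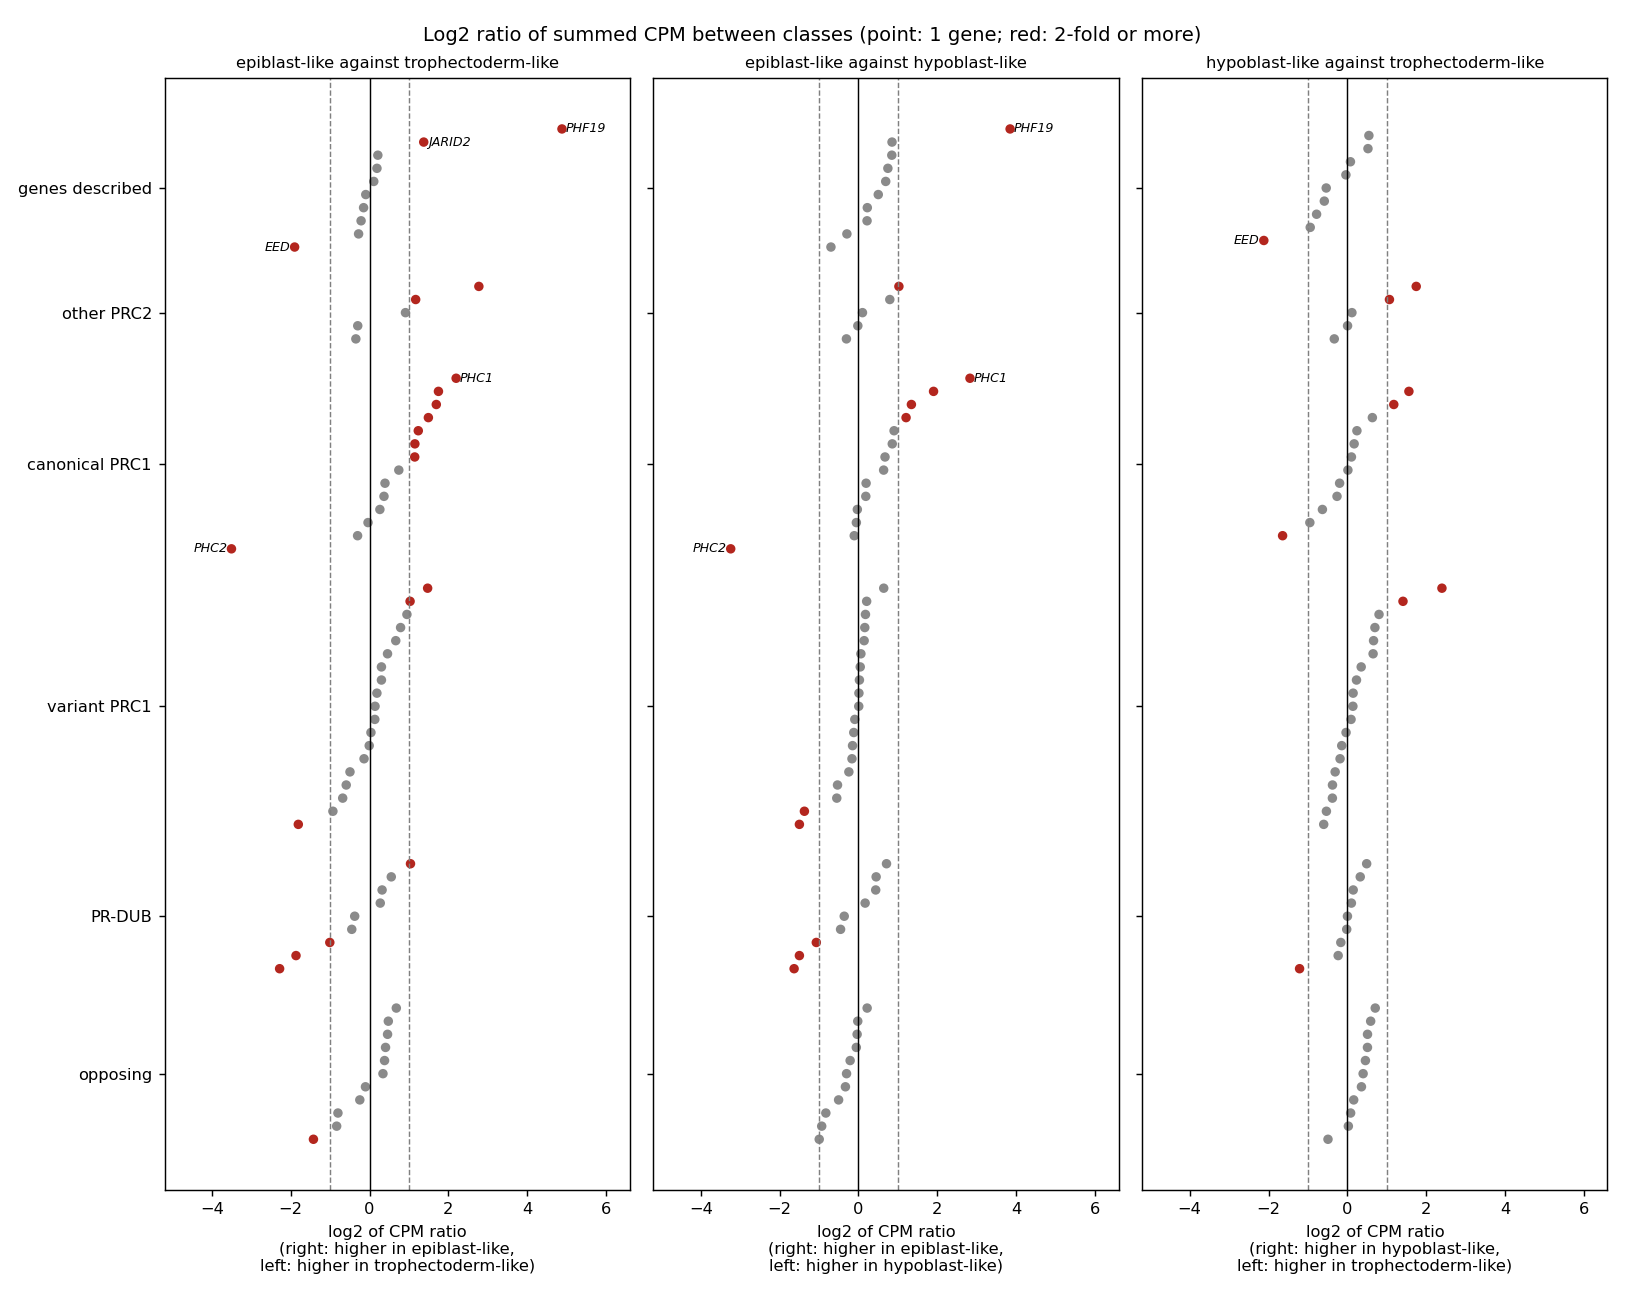
Log2 ratio of summed CPM between classes for the 10 genes described and for 5 lists of related genes, with 1 point per gene at 1 CPM or more in either class, and genes at 2-fold or more in red. Names are given for the genes described and for PHC1 and PHC2 where they passed. In the epiblast- against trophectoderm-like panel PHF19 lies at 4.88, JARID2 at 1.38 and EED at -1.90, and PHC1 and PHC2 of canonical PRC1 lie at 2.20 and -3.50.

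Among the 14 canonical PRC1 genes, which read the PRC2 mark and compact chromatin, 7 were higher and 1 lower by 2-fold in epiblast-like than trophectoderm-like cells, where 23.6% of all genes were higher and 11.6% lower. The counts of this and the following lists are by 2-fold too, and the shares of all genes given above for each pair of classes hold for them. Against hypoblast-like cells 4 were higher in epiblast-like cells and 1 was lower, and of the 12 at that level between hypoblast- and trophectoderm-like cells 2 were higher and 1 lower. Between epiblast- and trophectoderm-like cells PHC2 and PHC1 had the largest ratios, and SCMH1 had 1.51 against 0.467 CPM. CBX6 and CBX2, chromobox readers, had 2.45 against 0.654 CPM and 12.9 against 5.08 CPM in epiblast- against hypoblast-like cells. SCML1 had 17.4 against 7.68 CPM in hypoblast- against trophectoderm-like cells. Levels of BMI1, a partner of RNF2 in this complex, were 48.4, 50.2 and 49.7 CPM in epiblast-, hypoblast- and trophectoderm-like cells, and those of RING1 were 9.20, 8.04 and 7.13 CPM.

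PHC1 and PHC2, polyhomeotic paralogs whose proteins polymerize and link PRC1 complexes, shifted in opposite directions between the epiblast-like class and the others. PHC1 had 62.4 CPM (61.4 to 63.5) in the epiblast-like class, 8.78 CPM (8.27 to 9.30) in the hypoblast-like class and 13.6 CPM (13.3 to 13.9) in the trophectoderm-like class. PHC2 had 3.34 CPM (3.10 to 3.60), 31.6 CPM (30.6 to 32.6) and 37.9 CPM (37.3 to 38.4) in the same order. Of the reads of the pair, PHC1 held 94.9%, 21.7% and 26.4% in the same order. It held more than 50% in 48 of the 49 epiblast-like cells with a read of either, in 8 of 30 hypoblast-like cells and in 16 trophectoderm-like cells. Reads were not corrected for transcript length, so only the change of this share between classes can be read, not its size. The trophectoderm-like clusters differed as well, with 20.9 CPM of PHC1 in the smaller and 6.70 CPM in the larger, against 37.5 and 38.3 CPM of PHC2.

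**Figure D4:**
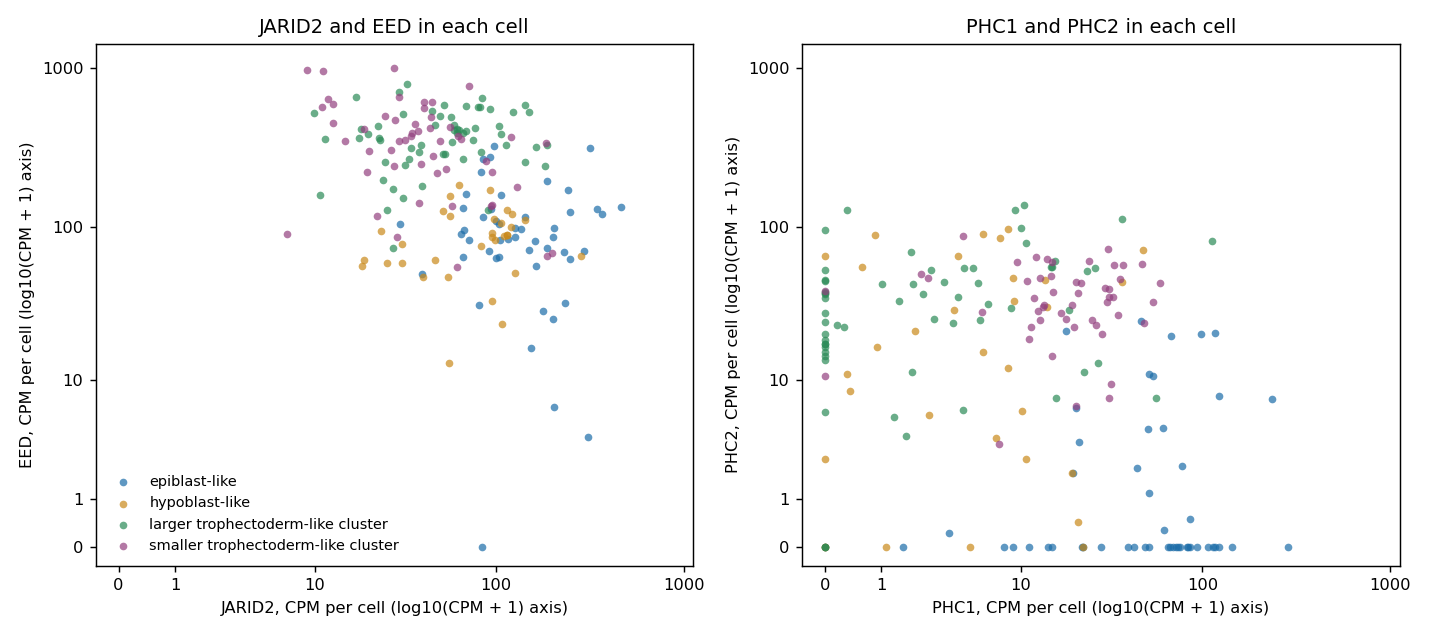
CPM of EED against JARID2 (left) and of PHC2 against PHC1 (right) in each cell, coloured by epiblast-like, hypoblast-like and larger and smaller trophectoderm-like cluster, on log10(CPM + 1) axes. Trophectoderm-like cells lie high in EED (median 363 CPM) and mostly low in JARID2 (median 44.5 CPM), and epiblast-like cells lie high in PHC1 and low in PHC2, where 30 of 50 have no read.

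In variant PRC1, the forms without chromobox readers, 16 of 19 genes stayed within 2-fold between epiblast- and trophectoderm-like cells. MAX, a DNA-binding partner in one of these forms and of MYC, had 115.2, 110.3 and 41.4 CPM in epiblast-, hypoblast- and trophectoderm-like cells. AUTS2, which is part of a form known for activating genes, had 9.57, 24.7 and 4.69 CPM, and BCORL1 had 1.22, 3.44 and 4.26 CPM. BCORL1 was the 1 gene of the list higher in trophectoderm-like cells. Between epiblast- and hypoblast-like cells 0 genes were higher and 2 lower, and between hypoblast- and trophectoderm-like cells 2 were higher and 0 lower. RYBP, with 123.4 CPM in the smaller and 54.7 CPM in the larger trophectoderm-like cluster, was among the 3 that passed between these clusters.

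PR-DUB removes the ubiquitin that PRC1 places. Of its 9 genes at 1 CPM, 1 was higher and 3 were lower in epiblast-like than trophectoderm-like cells. The same 3, ASXL1, ASXL3 and FOXK1, were lower in epiblast-like than hypoblast-like cells. ASXL1, a cofactor of the deubiquitinase, had 10.9 CPM (10.4 to 11.3) in the epiblast-like class, 33.7 CPM (32.7 to 34.7) in the hypoblast-like class and 39.5 CPM (39.01 to 40.1) in the trophectoderm-like class, with cell medians of 9.19, 36.2 and 33.8 CPM. FOXK1 had 8.20, 23.2 and 16.5 CPM, and ASXL3 had 0.734, 1.54 and 3.57 CPM. MBD5 was the gene higher in epiblast-like cells, at 2.33 against 1.13 CPM in trophectoderm-like cells. Among 11 enzymes and cofactors that oppose H3K27 methylation, NSD2 alone passed, with 6.35 against 17.03 CPM in epiblast- against trophectoderm-like cells.

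Genes that textbooks give as Polycomb targets were mostly at low levels. Of 22 such genes 21 were matched, and 4 of them (19%) reached 1 CPM in a class and 1 (4.76%) reached 10 CPM, where 66.9% and 46.5% of all 18046 symbols did. Of the 17 with 1 identifier 23.5% reached 1 CPM, against 68.3% of all symbols with 1 identifier. Both genes without a read, HOXA2 and HOXA9, have 2 identifiers. In 13 of the 21 no cell reached 10 CPM. The 4 were CDKN1C, HOXC13, HOXD13 and NKX2-2. CDKN1C, a cell cycle inhibitor, had 4.12, 2.47 and 18.1 CPM in the epiblast-, hypoblast- and trophectoderm-like classes. Within the trophectoderm it was at 33.3 CPM in the smaller and 3.78 CPM in the larger cluster, and 43 of 51 against 9 of 60 cells reached 10 CPM. HOXC13 had 0.930, 1.24 and 7.54 CPM in the 3 classes. HOXD13 had 1.25 CPM in the epiblast-like class, where 4 of 50 cells reached 10 CPM, and 0.0078 and 0.048 CPM in the hypoblast- and trophectoderm-like classes. NKX2-2 had 1.08, 1.98 and 0.176 CPM in the 3 classes, and it reached 10 CPM in 1 of 50 cells of the epiblast-like class and in 2 of 32 of the hypoblast-like class. HOXA13 had 2 identifiers as well, and the low counts of HOXA2, HOXA9 and HOXA13 carry the same uncertainty as those of EZH2. These data hold no measure of H3K27 methylation.

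Within a class the 10 genes had mostly low correlations with each other, and those at a few CPM (EZH2, EZH1, PHF19) carry counting error in r. Over the 45 pairs of genes, Pearson r of log2(CPM + 1) ran from -0.31 to 0.26 over the 50 epiblast-like cells, from -0.44 to 0.62 over the 32 hypoblast-like cells and from -0.26 to 0.34 over the trophectoderm-like cells of both clusters. The 1 pair at 0.5 or more was SUZ12 with MTF2 in hypoblast-like cells. EZH2, an E2F target known to follow proliferation, had r of 0.22, 0.39 and 0.09 with the summed level of 24 S and G2/M genes in epiblast-, hypoblast- and trophectoderm-like cells, and PHF19 had 0.40, 0.12 and 0.11. The summed S and G2/M level was 5481, 6490 and 6683 CPM. These correlations are descriptions over cells of 1 sample, which share depth and total.

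Over all cells kept, the genes most like each Polycomb gene were sought among 7464 genes with 10 CPM or more that had reads in 50% of these cells or more. Those at r of 0.5 or more followed the classes for EED, JARID2 and PHF19. EED was most like RFLNB (0.71), MPZL1 (0.70) and RAB17 (0.70), all at their highest in trophectoderm-like cells. MPZL1, a cell surface glycoprotein, had 708 CPM there and 65.1 CPM in epiblast-like cells. JARID2 was most like MARCHF8 (0.63), the NODAL co-receptor CRIPTO (0.62) and the chemokine CXCL12 (0.61), and CRIPTO had 1278, 125.5 and 24.7 CPM in epiblast-, hypoblast- and trophectoderm-like cells. PHF19 was most like the homeobox gene GBX2 (0.61), DNAJB6 (0.60) and the pluripotency marker DPPA4 (0.59). AEBP2 was most like TFAP2C (0.52), a transcription factor of naive pluripotency and trophectoderm. With cluster means subtracted none of these was among the 3 most alike at 0.5 or more, and JARID2 with SOX4 (0.51) was the 1 such pair besides those of RNF2.

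RNF2 was most like CHMP2B (0.64), ABT1 (0.63) and PSMB5 (0.62), and these 3 were also its most alike genes within clusters. The likeness rested on few cells. Without the 10 cells under 10 CPM of RNF2, r was 0.27, 0.18 and 0.28, an alternative added after the values were seen. EZH2, EZH1, SUZ12, MTF2 and KDM6B had no gene at 0.5 or more.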

How the data were processed

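Read counts of 217 single cells from day 4 chimpanzee blastoids were used as the authors deposited them, without normalization. The study's methods give FastP trimming, STAR alignment to the chimpanzee genome and counting per Ensembl gene, while the submitters' processing notes name Trim Galore 0.6.6, STAR 2.7.7a and GRCh38. SMART-seq2 does not mark strand, so reads of overlapping antisense genes cannot be told apart. Symbols came from a table that covers 18783 of 33729 identifiers, and reads of a symbol with several identifiers were summed. Transcript lengths, gene positions and sequences were not used here. No column of another sample was present (0 left unused).

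A cell needed at least 4000 reads and 8000 detected genes, which 193 cells had (50 epiblast-like, 32 hypoblast-like and 111 trophectoderm-like). Scanpy 1.11.5 clustered them on 15804 genes (read in at least 20 cells) with 50 principal components, 30 neighbours and Leiden resolution 1 (leidenalg 0.10.2, seed 0). Each cluster was named for the marker list with the highest mean z-score, without a minimum number of markers. A cell counted as carrying markers of a class with at least 3 of them at 10 CPM or more. Doublets were neither called nor removed. No pair of cells had identical counts. Depth was 1679888 to 25630392 reads. A class level is the CPM of its summed reads. A ratio of 2-fold among genes at 1 CPM or more in either class was counted. With 1 sample there was no test. For the genes of each list past 2-fold, at most 4 per list and pair of classes were named by size of the ratio, and a few more (RING1, BMI1, RBBP4, RBBP7, KDM6A, EPOP, EZHIP) were named for their role. Some genes of the lists are counted but not reported by name here. For each Polycomb gene the 3 most alike genes were named at a Pearson r of 0.5 or more on log2(CPM + 1).

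The genes and lists were chosen with earlier results of these data known. The level and ratio steps were tested on simulated counts, and the clustering and naming of clusters were not. Other tools were matplotlib 3.10.9, umap-learn 0.5.12, igraph 0.11.9, scikit-learn 1.9.0, anndata 0.12.19, scipy 1.17.1, pandas 2.3.3, numpy 2.4.6 and Python 3.11.15. Alternatives covered the cell filter, detection, clustering, scaling, thinning, left-out cells, level filter and ratio.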

Additional observations from a re-analysis of the deposited data

Results flagged for a closer look

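The 24 cells with fewer than 8000 detected genes, which entered no comparison, held reads of all 10 genes. Cells with a read numbered 12 for EZH2, 9 for EZH1, 19 for EED, 21 for SUZ12 and 23 for JARID2. They numbered 19 for MTF2, 4 for PHF19, 20 for AEBP2, 12 for RNF2 and 20 for KDM6B. These cells have no class, so their reads cannot be assigned to a lineage.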

How the results depend on the processing

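Over the alternatives and pairs of classes, the counts of genes past 2-fold were recomputed 62 times, and 49 of these counts stayed within 1.5 times the reported one. EED, JARID2 and PHF19 kept their direction and their side of 2-fold between epiblast- and trophectoderm-like cells in all 13 alternatives of cells, clustering, scaling and summary over cells. The level filters are not among these 13. With a filter of 10 CPM PHF19, at 8.63 CPM in epiblast-like cells, is no longer counted in this pair. Their log2 ratios ran from -2.43 to -1.87, from 1.18 to 1.89 and from 4.52 to 9.32. The value of 9.32 for PHF19 came from the median over cells. The trophectoderm-like median was 0 and was put at a floor of 3 reads, so it is not a measured ratio. The 1 gene past 2-fold between epiblast- and hypoblast-like cells became 2 with clustering on UMAP coordinates, 4 with the median over cells and 5 with cells holding markers of another class left out. It became 0 with a level filter of 10 CPM and 6 at a ratio of 1.5. The 1 gene between hypoblast- and trophectoderm-like cells became 2 with the stricter cell filter, with detection from 2 reads, with the highest cell of each gene left out and without a level filter. It became 4 on UMAP coordinates, 3 with the median over cells, 3 with cells holding markers of another class left out and 3 at a ratio of 1.5. Apart from the lower ratio and the level filters, the cause was not tested. Leaving out cells with markers of another class left 11, 1 and 63 cells of the 3 classes. UMAP clustering gave 65 epiblast-like and 17 hypoblast-like cells, and it and 15 neighbours gave no pair of trophectoderm-like clusters to compare. PHF19, under 1 CPM in both classes, went from a log2 ratio of 1.03 to -0.11 for hypoblast- over trophectoderm-like cells without its highest cell. Median-ratio scaling moved the median log2 ratio of all genes from 0.15 to -0.05 for epiblast- over trophectoderm-like cells and from 0.18 to -0.01 for epiblast- over hypoblast-like cells. Of 498 recomputed log2 ratios of single genes 24 changed sign, 23 of them from ratios under 2-fold and 1 (PHF19, above) from a ratio past it, and 222 moved by more than counting error without reversing a ratio past 2-fold. With cells holding markers of another class left out, 8 of 20 ratios with the hypoblast-like class changed sign, among them JARID2 over trophectoderm-like cells, from 0.52 to -0.53, and these rest on 1 hypoblast-like cell. Of 300 shares of cells 30 moved. No paired analysis was possible because all cells form 1 sample. A cell without a read may still express the gene. With cells thinned to equal depth and 2 shallower epiblast-like cells left out, the share of epiblast-like cells with a read was 87.5% in place of 98% for EZH2, 68.8% in place of 70% for PHF19 and 77.1% in place of 76% for EZH1.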
